A study of Homo sapiens with 2 samples.

Results

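The genes described here are 10 genes grouped as AP-1, EGR1 and related immediate-early factors. They are FOS, FOSB and FOSL1 of the FOS family, JUN and JUND of the JUN family, ATF3, EGR1, ARC, MYC and IER3. They were taken by gene symbol from the platform annotation, and every probe set that carried a member's symbol was used, 23 of the 16098 named probe sets. All 10 had a named probe set, among 14884 named genes. AsPC-1 cells, a widely used line from a human pancreatic adenocarcinoma, were grown as a 3-dimensional culture with collagen gel laid over them. One culture was held for 24 h under a compressive stress of 2.9 mmHg and the other was left uncompressed for 24 h. Total RNA of each was measured on 1 GeneChip Human Gene 2.0 ST array, which reports a log2 signal per probe set. Both groups share the cell line, the gel, the medium and the duration, and differ by the compression alone as far as the labels say.

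Immediate-early genes are switched on within minutes of a stimulus by signalling proteins that are already present, without new protein synthesis. Proteins of the FOS, JUN and ATF families pair through leucine zippers to form AP-1, a transcription factor complex, while EGR1 is a zinc finger factor induced through serum response factor and its ERK-phosphorylated partners. Mechanical loading is a well-known inducer of FOS and EGR1 in many cell types. Most of these transcripts are short-lived, so a level measured after a day describes the state at that time and not the first response.

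With 1 array per condition there was no spread between cultures to set a difference against, so no test was made. A difference is given as the log2 signal of the compressed culture minus that of the uncompressed culture. A gene was counted as higher or lower where this passed 1.5-fold, which is 0.58 on the log2 scale. Genes were kept where the brightest probe set had a mean of at least 4.79, the median over all named genes, which left 7442 genes. In total RNA of a whole culture, a change in the number of cells that use a gene cannot be told apart from a change in RNA per cell.

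Of the 10 genes, 9 passed the level filter, and 5 of these passed 1.5-fold upward in the compressed culture: ARC, EGR1, FOS, JUND and FOSB. The count was 3 of 9 with the probe sets of a gene averaged and 3 of 9 after quantile normalization was repeated over the named probe sets. None of the 9 was 1.5-fold lower. Over all kept genes, 3.95% were higher and 1.12% were lower by that size. The members' median difference was 0.59, beside 0.01 over all kept genes, whose 25th and 75th percentiles were -0.15 and 0.18. Of the 9 kept members, 7 had a positive difference, as did 50.8% of the kept genes. JUN and MYC were the members with a negative difference. ATF3 lay under the filter. Counted by probe set without a filter, 7 of 23 were at least 1.5-fold higher and 0 lower, against 3.94% and 2.91% of all named probe sets. Several of the 23 repeat the same numbers, and 16 had values of their own, of which 14 had a positive difference. The genes were chosen with an earlier result on immediate-early genes of these arrays known, so these counts are a description and not independent evidence of a direction.

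**Figure D1:**
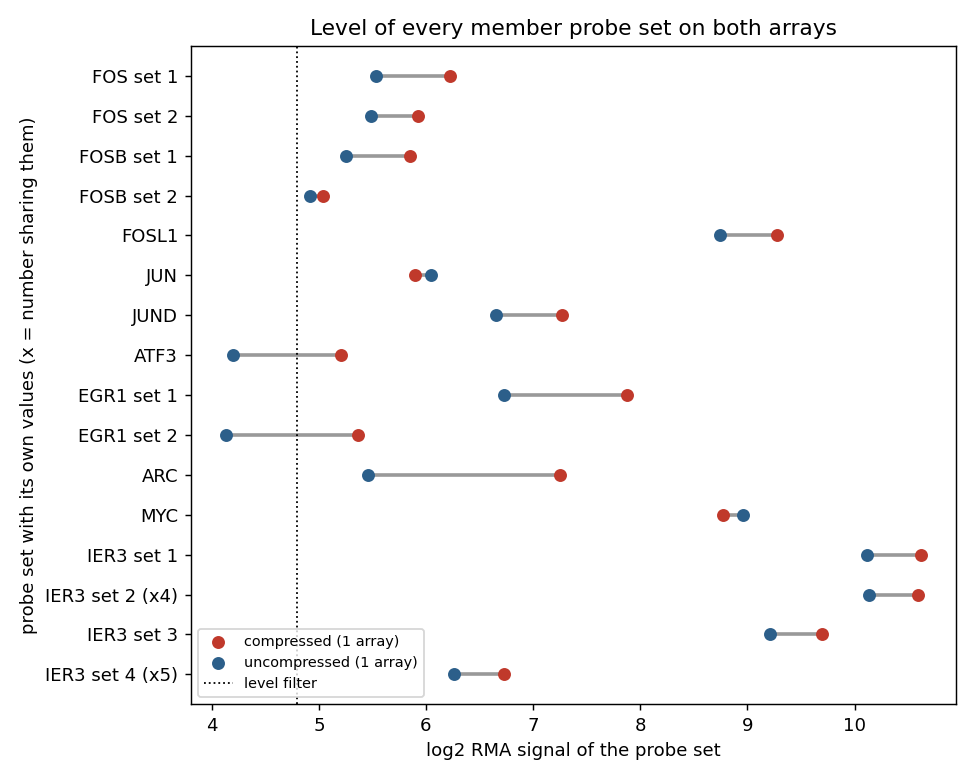
Log2 RMA signal (horizontal axis) of the 16 member probe sets with values of their own, one row each, on the compressed array (red) and the uncompressed array (blue). The dotted line is the level filter at 4.79, and x4 and x5 mark values shared by several IER3 probe sets. The compressed point lies to the right in 14 rows and to the left for JUN and MYC.

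The bases in front of these genes are shown as windows from the RefSeq promoter table (GRCh38.p14). Windows were used for 4 of the 5 genes that passed 1.5-fold, and they hold elements through which such genes are classically switched on. In all, 7 windows of 6 members were used, ATF3 having a pair of start sites. FOSL1 and IER3 had no entry in the table. ARC and MYC were left out of the search, so nothing is said of the bases in front of them. Each window shown is the 250 bases before the start of transcription, read 5′ to 3′ on the gene's own strand. They lie at chr14:75278578-75278827 on the plus strand for FOS, chr19:45467746-45467995 on the plus strand for FOSB, chr19:18281623-18281872 on the minus strand for JUND, chr5:138465229-138465478 on the plus strand for EGR1, chr1:58784048-58784297 on the minus strand for JUN and chr1:212565157-212565406 on the plus strand for ATF3, the first of the ATF3 starts. These positions belong to the RefSeq assembly and not to the array, whose build the sources used here do not give. Capitals mark matches to the motifs named in the next paragraph.
FOS: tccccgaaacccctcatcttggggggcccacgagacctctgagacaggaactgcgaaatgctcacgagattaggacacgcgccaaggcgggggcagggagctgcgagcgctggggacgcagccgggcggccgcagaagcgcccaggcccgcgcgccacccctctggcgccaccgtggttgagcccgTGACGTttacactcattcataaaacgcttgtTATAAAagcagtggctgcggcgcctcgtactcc
FOSB: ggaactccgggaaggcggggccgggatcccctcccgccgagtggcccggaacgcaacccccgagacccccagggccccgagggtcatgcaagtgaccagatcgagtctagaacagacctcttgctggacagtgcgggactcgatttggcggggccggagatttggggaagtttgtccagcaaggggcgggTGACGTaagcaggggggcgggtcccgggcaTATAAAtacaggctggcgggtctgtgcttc
JUND: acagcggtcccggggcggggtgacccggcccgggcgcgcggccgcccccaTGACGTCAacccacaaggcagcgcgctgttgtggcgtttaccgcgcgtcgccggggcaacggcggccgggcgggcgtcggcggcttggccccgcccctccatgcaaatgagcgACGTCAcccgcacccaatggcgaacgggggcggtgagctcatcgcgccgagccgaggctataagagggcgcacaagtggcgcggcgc
EGR1: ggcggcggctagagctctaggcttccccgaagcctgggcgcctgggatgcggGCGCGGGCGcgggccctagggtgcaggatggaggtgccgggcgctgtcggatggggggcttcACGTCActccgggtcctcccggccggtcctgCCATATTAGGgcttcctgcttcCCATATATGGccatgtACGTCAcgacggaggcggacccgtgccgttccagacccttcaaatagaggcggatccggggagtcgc
JUN: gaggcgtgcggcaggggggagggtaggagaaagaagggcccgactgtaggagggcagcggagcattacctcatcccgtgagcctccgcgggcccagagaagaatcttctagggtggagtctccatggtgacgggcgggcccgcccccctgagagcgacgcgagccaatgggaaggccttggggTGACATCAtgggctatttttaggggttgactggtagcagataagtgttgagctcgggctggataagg
ATF3: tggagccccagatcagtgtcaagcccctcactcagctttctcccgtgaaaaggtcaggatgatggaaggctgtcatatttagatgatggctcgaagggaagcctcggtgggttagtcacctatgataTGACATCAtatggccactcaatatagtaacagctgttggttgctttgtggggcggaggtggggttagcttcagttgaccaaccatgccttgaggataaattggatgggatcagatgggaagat

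The cyclic AMP response element, bound by CREB and ATF proteins, is TGACGTCA. Its core TGACGT, read on both strands, was found in the windows of FOS, FOSB, JUND and EGR1. It was not found in the windows of JUN and ATF3. Holding the core cannot be set against passing 1.5-fold here. ATF3 had a difference of 1.01 and was uncounted only because its mean was under the level filter, and ARC was left out of the search. The core lay 64 to 59 bases before the start of FOS and 60 to 55 before that of FOSB. EGR1 held it at 136 to 131 and at 67 to 62 bases before the start, and JUND at 87 to 82. JUND also held the whole 8-base element, 200 to 193 bases before its start, which contains the core on both strands. The windows of JUN (67 to 60 bases before the start) and ATF3 (123 to 116) held instead TGACATCA, the ATF and JUN site for which the JUN promoter is known. Both the core and this variant were added to the search after the windows had been read. Of all 35116 windows in the table, 7.10% held the core, 1.65% the whole element and 2.37% the variant. The core was in 9.73% of the windows of kept genes and in 7.82% of those of kept genes at least 1.5-fold higher. The difference between these shares was not tested.

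Other elements were found in fewer of the windows. EGR1 had a pair of serum response elements (the CArG box), at 105 to 96 and 83 to 74 bases before its start, where 1.16% of all windows held at least 1. It also had a match to its own binding site, GCGNGGGCG, 198 to 190 bases before the start, a motif in 8.41% of all windows. A TATA box, TATAAA, lay 33 to 28 bases before the start of FOS and 30 to 25 before that of FOSB, and at a greater distance, 230 to 225 bases, before the second ATF3 start. It was in 10.7% of all windows, both strands read, in 5.36% of those of kept genes and in 10.7% of those of kept genes at least 1.5-fold higher. The AP-1 site TGANTCA was in none of the 7 member windows. It was in 6.57% of all windows, in 4.11% of those of kept genes and in 8.14% of those of kept genes at least 1.5-fold higher, shares that were not tested. The E box CACGTG, the site of MYC and MAX, was in none of the 7 and in 6.34% of all windows. A match is a run of letters and no measure of binding. That a motif is missing says only that these letters are not in these 250 bases.

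**Figure D2:**
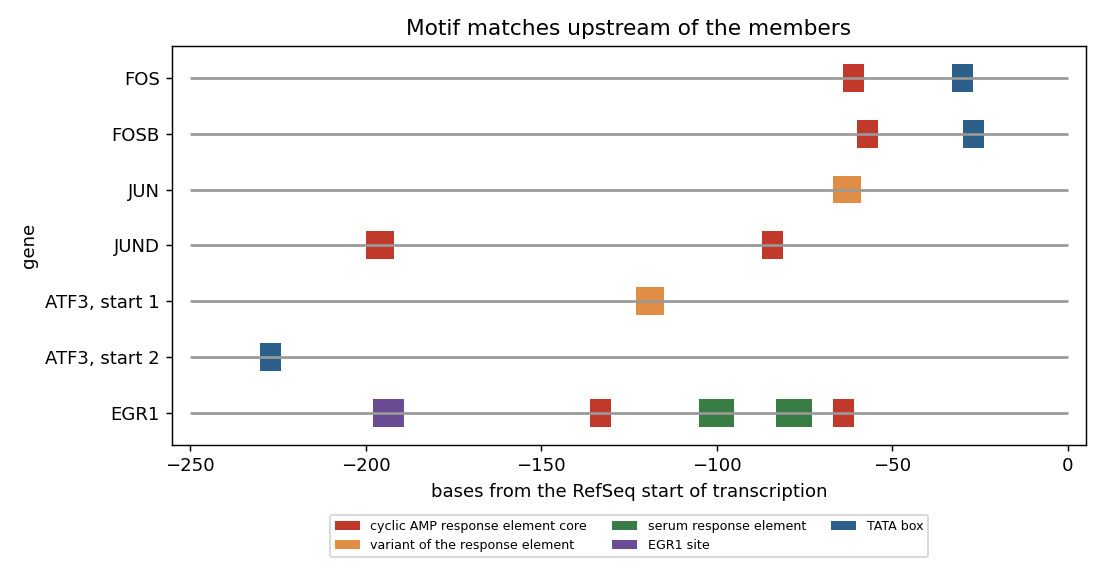
Motif matches (coloured blocks) in the 250 bases before the RefSeq start of 6 members, with the distance from the start in bases on the horizontal axis and 1 row per start site. The core of the cyclic AMP response element (red) appears in FOS, FOSB, JUND and EGR1, and its TGACATCA variant (orange) in JUN and in the first ATF3 start.

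FOS, the founding AP-1 partner, cannot pair with itself and binds DNA together with a JUN protein. Its brighter probe set read 6.22 on the compressed and 5.54 on the uncompressed array. Its other probe set read 5.93 on the compressed and 5.49 on the uncompressed array. The differences were 0.69 (1.61-fold) and 0.44 (1.35-fold), so 1 of the 2 passed 1.5-fold, and their average, 0.56, did not.

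FOSB encodes a FOS protein that can form stable, long-lasting AP-1 complexes in the rodent brain, through a shortened splice form. Its brighter probe set read 5.85 on the compressed and 5.25 on the uncompressed array, a difference of 0.59, just past the size rule. The dimmer one read 5.04 on the compressed and 4.92 on the uncompressed array, a difference of 0.12. The FOSB probe sets therefore differ from each other by 0.47, and FOSB did not pass with their average (0.36), after loess correction (0.576 against a rule of 0.585) or after repeated quantile normalization (0.55). Over 150 protein-coding genes with exactly 2 different probe sets above the filter, the SD of a single probe set's difference was 0.185.

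FOSL1 encodes FRA1, a FOS relative without the transactivation domains of FOS that is linked to invasive growth in carcinomas. It read 9.27 on the compressed and 8.74 on the uncompressed array. The difference of 0.53 (1.44-fold) was just short of the size rule, and placed FOSL1 at rank 381 of 7442 kept genes. The 5 probe sets of the FOS family thus all had a positive difference, from 0.12 to 0.69, and 2 of them passed 1.5-fold.

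The JUN family members differed in sign. JUND, a JUN protein that is expressed in most resting cells and is known to restrain growth in mouse fibroblasts, read 7.27 on the compressed and 6.65 on the uncompressed array, a difference of 0.62 (1.54-fold). JUN, the strongest transactivator of the family and a substrate of the JNK kinases, read 5.90 on the compressed and 6.05 on the uncompressed array. Its difference of -0.15 put it among the lower 25.2% of kept genes and inside 1.5-fold. JUND and JUN each rested on 1 probe set, and with quantile normalization repeated JUND did not pass (0.57).

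ATF3, a stress-induced factor that pairs with JUN proteins and represses transcription as a homodimer, read 5.21 on the compressed and 4.20 on the uncompressed array. The difference was 1.01, but its mean of 4.70 was under the filter and without detection calls its uncompressed level may be background, which leaves the fold undefined.

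EGR1 activates growth factor, matrix and tumour-suppressor genes and its own corepressor gene NAB2. The brighter probe set read 7.87 on the compressed and 6.73 on the uncompressed array, a difference of 1.15 (2.21-fold). The dimmer probe set read 5.37 on the compressed and 4.13 on the uncompressed array, a difference of 1.24. Its mean, 4.75, was under the filter, so this probe set gives the sign and not a size to set beside the brighter one. EGR1 ranked 46 of 7442.

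ARC had the largest difference of the 10 genes. Its protein is best known from rodent neurons, where it moves AMPA receptors off the synapse and assembles into capsids like those of retrotransposons, and its gene is induced through serum response factor as FOS and EGR1 are. It read 7.25 on the compressed and 5.46 on the uncompressed array, a difference of 1.79 (3.46-fold) and rank 9 of 7442. It rested on 1 probe set. Of 8 kept genes in a list of activity-regulated and capsid-like neuronal genes, 0 passed 1.5-fold in either direction, with differences from -0.34 to 0.14. With 3.95% of all kept genes higher and 1.12% lower, a count of 0 among 8 says little. The named neuronal markers SYN1 (4.19 on the compressed and 4.44 on the uncompressed array) and MAP2 (3.35 and 3.92) were both under the filter on both arrays.

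MYC, the growth factor-induced basic helix-loop-helix factor that drives ribosome production and metabolism, read 8.77 on the compressed and 8.96 on the uncompressed array. The difference of -0.19 was within 1.5-fold, at the 20.1st percentile of kept genes.

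IER3 (IEX-1), a stress- and NF-kB-induced protein that regulates apoptosis and prolongs ERK activity, carried 11 of the 23 probe sets. A set of 5 read 6.72 on the compressed and 6.26 on the uncompressed array, with identical values throughout, and a set of 4 read 10.59 and 10.14. The remaining ones read 10.62 and 9.69 on the compressed array, against 10.12 and 9.21 on the uncompressed array. All 11 had a positive difference, from 0.46 to 0.50, which is below 1.5-fold. They amount to 4 different pairs of values, so they are not 11 separate measurements. The brightest of them tied for the highest mean, and the one with the lowest probe set number, with a difference of 0.50 (1.42-fold), stood for the gene. With quantile normalization repeated over the named probe sets this difference was 0.30.

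By rank among the kept genes, ARC stood at the 99.9th percentile of the difference, EGR1 at the 99.4th, FOS at the 97.5th, JUND at the 96.6th, FOSB at the 96.2nd, FOSL1 at the 94.9th and IER3 at the 94.1st. From FOS down to IER3 each differed from the next in this order by less than the probe set SD of 0.185, whereas the steps from ARC to EGR1 and from EGR1 to FOS were larger than that SD. The SD was taken between probe sets of a gene on the same 2 arrays, so it holds no spread between cultures. It is also that of a single difference, while a step compares 2, so it is no test of this order. The protein-coding genes next to ARC were CCL20 (1.91), a chemokine gene, and THBS1 (1.71), the thrombospondin-1 gene. Those next to EGR1 were ARL14 (1.17) and ADIRF (1.15), and those next to FOS were CCNL1 and GPR137B (0.69 each). SSH2 and CDC42BPA (0.62 each), the genes of a cofilin phosphatase and of a CDC42-regulated kinase, flanked JUND. METTL27 and TIMP2 (0.59 each) flanked FOSB. Likeness here is closeness of a single difference between 2 arrays.

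**Figure D3:**
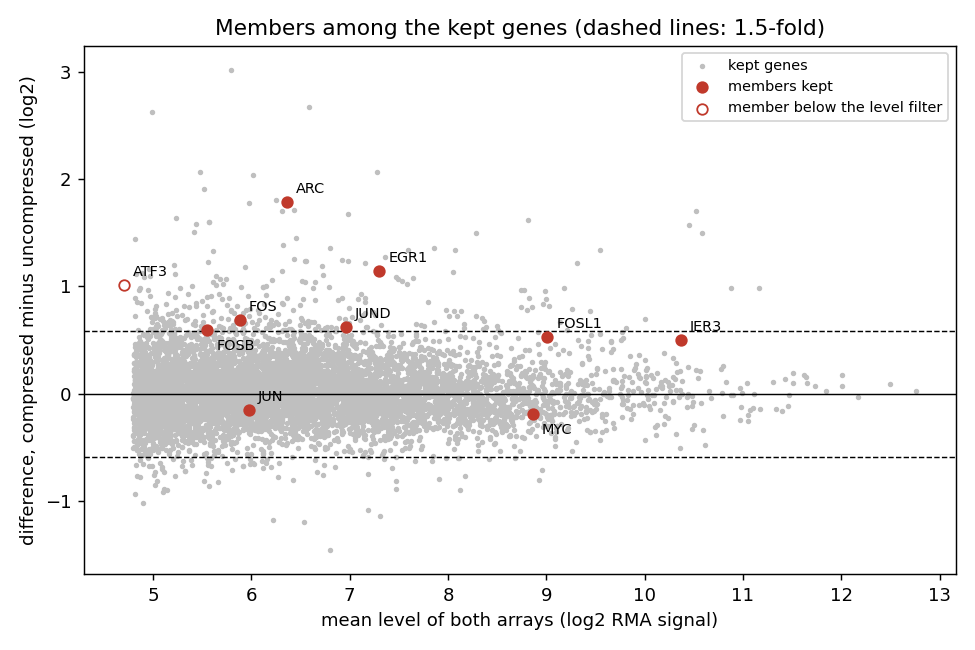
Difference between compressed and uncompressed culture (log2, vertical axis) against the mean level of both arrays (log2 RMA signal, horizontal axis) for the 7442 kept genes (grey) and the members (red, ATF3 open because it is under the filter). Dashed lines mark 1.5-fold. Among the members, ARC and EGR1 lie farthest above the upper line, FOS, JUND and FOSB just above it, FOSL1 and IER3 just below it, and JUN and MYC under 0.

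In 4 bins of the kept genes by mean level, between 3.17% and 4.46% were at least 1.5-fold higher and between 0.70% and 1.56% at least 1.5-fold lower. FOS, FOSB and JUN were in bin 2 from the dim end (4.46% higher), JUND and ARC in bin 3 (4.19%) and FOSL1, EGR1, MYC and IER3 in the brightest bin (3.17%).

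Genes beside the members on the chromosome were taken by position alone. The nearest protein-coding gene with a named probe set on each side gave 20 genes, of which 14 were kept. Of these, 0 were 1.5-fold higher and 0 lower, beside 3.95% and 1.12% of all kept genes, so the counts of 0 say little. The differences ran from -0.52 (TMED10, beside FOS) to 0.24 (NENF, beside ATF3). JDP2, an AP-1 repressor gene on the other side of FOS, read 5.26 on the compressed and 5.43 on the uncompressed array. GDF15, a stress-induced cytokine gene beside JUND, read 5.40 on the compressed and 5.69 on the uncompressed array, and FLOT1, beside IER3, 8.95 and 9.09.

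Among the other AP-1 and small MAF genes, none passed the size rule. As 3.95% of all kept genes were higher and 1.12% lower, a count of 0 in this list or those that follow says little. Of 7 kept genes, 4 had a positive difference, and the median was 0.07, which was 0.32 over the 2 genes left by a filter at the 75th percentile of level. JUNB, the third JUN family gene, read 7.52 on the compressed and 6.94 on the uncompressed array, a difference of 0.582 against a rule of 0.585. FOSL2, which encodes FRA2, read 6.05 on the compressed and 5.90 on the uncompressed array. In the list of ATF and CREB family genes, 0 of 7 kept genes passed, with differences from -0.22 to 0.47 and a median of 0.18.

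Of the other EGR genes and their partners, EGR3 read 4.70 on the compressed and 4.75 on the uncompressed array, both under the filter. NAB2, a corepressor induced by EGR1 that feeds back on it, read 4.96 on the compressed and 4.75 on the uncompressed array, a difference of 0.21. Neither it nor the other kept gene of that list, at 0.34, passed 1.5-fold. Serum response factor itself, the gene SRF, read 6.79 on the compressed and 6.50 on the uncompressed array. The 3 kept genes of SRF and its cofactors had differences from 0.09 to 0.29.

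Of 8 kept genes in a list of other immediate-early genes, 2 were higher, 0 lower and 7 positive, with a median of 0.44. Over all kept genes, 3.95% were higher, 1.12% lower and 50.8% positive. DUSP1, whose phosphatase switches off MAP kinases, read 8.31 on the compressed and 6.25 on the uncompressed array, a difference of 2.07. IER5, a regulator of heat shock factor 1, read 6.34 on the compressed and 5.61 on the uncompressed array, a difference of 0.73 (1.66-fold). IER2, which lies in the same early class, read 7.07 on the compressed and 6.69 on the uncompressed array, within 1.5-fold. A further 18 of the 28 listed genes were unnamed on the array here, so the list is covered in part.

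Of 10 kept MAP kinase cascade genes upstream of these factors, 0 were higher and 1 was lower, with 6 positive. The shares over all kept genes were 3.95%, 1.12% and 50.8%. The median of the list, 0.07, turned to -0.12 with no filter. The one past the rule was HRAS, a RAS GTPase gene, at 5.45 on the compressed and 6.15 on the uncompressed array, which is 1.63-fold lower. MAPK3, encoding ERK1, read 7.52 on the compressed and 7.36 on the uncompressed array. Phosphorylation, through which these kinases act, is not measured by RNA.

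Reported target genes gave mixed values. Of 9 kept AP-1 targets, 2 were higher, 0 lower and 8 positive, with a median of 0.27. Among all kept genes the shares were 3.95% higher, 1.12% lower and 50.8% positive. HMOX1, the heme oxygenase 1 gene, read 7.16 on the compressed and 5.92 on the uncompressed array, and HBEGF, an EGFR ligand gene, 5.66 and 4.93, differences of 1.23 and 0.74. MMP1, the collagenase gene with a classic AP-1 site in its promoter, read 6.55 on the compressed and 2.95 on the uncompressed array. Its mean was just under the filter and it is in none of the counts. CCND1, the cyclin D1 gene, read 8.05 on the compressed and 7.96 on the uncompressed array.

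Of 9 kept EGR1 targets, 2 were higher, 0 lower and 7 positive, with a median of 0.20, which was 0.09 with no filter. For all kept genes these shares were 3.95%, 1.12% and 50.8%. The higher ones were THBS1 (7.28 on the compressed and 5.58 on the uncompressed array) and SQLE, the squalene epoxidase gene (8.62 and 7.48). SQLE is also a gene of sterol synthesis under other control. The kept genes CCND1 and VEGFA stand in both the AP-1 and the EGR1 list.

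MYC's partners and its targets were also inside 1.5-fold with a single exception. With 3.95% of all kept genes higher and 1.12% lower, such counts say little about these lists. In the dimerisation network, 1 of 10 kept genes was higher and 0 were lower, with 8 positive and a median of 0.25, which was 0.06 over the 4 genes left by a filter at the 75th percentile. The exception was MXD1, whose protein competes with MYC for MAX and represses the same sites, at 6.72 on the compressed and 6.12 on the uncompressed array, a difference of 0.60 (1.51-fold), and 0.56 after loess and 0.53 after repeated quantile normalization, where it did not pass. MAX itself read 5.29 on the compressed and 5.02 on the uncompressed array. Of 16 kept MYC targets, 0 passed in either direction and 3 had a positive difference, beside 50.8% of all kept genes. The targets' median was -0.10. NCL, the nucleolin gene, read 7.17 on the compressed and 7.28 on the uncompressed array, and ODC1, the ornithine decarboxylase gene, 10.06 and 9.95.

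Around IER3, a list of NF-kB subunits and survival genes had 10 kept genes, all with a positive difference, beside 50.8% of kept genes. In this list 2 were higher and 0 lower, beside 3.95% and 1.12% of all kept genes. The median was 0.20, which was 0.35 with a filter at the 75th percentile of level. A further 5 of the 16 listed genes were unnamed on the array here, among them NFKBIA and TNFAIP3. NFKB2 read 6.97 on the compressed and 6.08 on the uncompressed array (1.85-fold), and CFLAR, which encodes the caspase-8 inhibitor FLIP, 6.88 and 6.22 (1.58-fold).

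**Figure D4:**
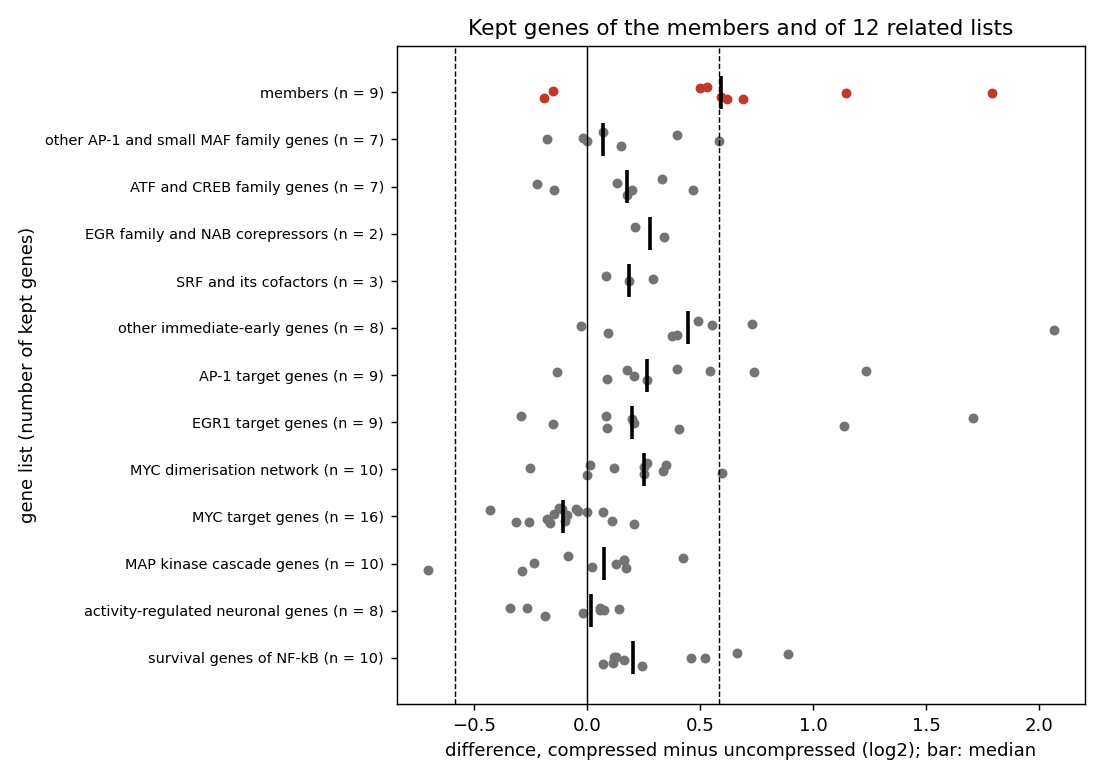
Difference between compressed and uncompressed culture (log2, horizontal axis) of each kept gene of the members (red) and of 12 related gene lists (grey), with the number of kept genes beside each name. Black bars are medians and dashed lines mark 1.5-fold. The members' median is 0.59, that of the other immediate-early genes 0.44 and that of the MYC targets -0.10.

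The epithelial identity on the label was checked with 10 markers, of which 8 passed the filter, among them KRT19 (10.79 on the compressed and 10.78 on the uncompressed array) and EPCAM (10.43 and 10.77). KRT7 (3.78 on the compressed and 3.36 on the uncompressed array) and CLDN4 (4.73 and 4.80) had means under the filter. GPA33 (6.64 on the compressed and 7.72 on the uncompressed array) and TSPAN8 (7.52 and 8.31) were at least 1.5-fold lower in the compressed culture, and 0 markers were higher. Over all kept genes, 1.12% were lower and 3.95% higher. Named endothelial markers were under the filter, as was the fibroblast marker DCN (1.82 on the compressed and 1.79 on the uncompressed array). LUM, listed as a fibroblast marker, read 9.39 on the compressed and 9.75 on the uncompressed array, and LYZ, listed for leukocytes, 8.82 and 9.04. No named marker of fibroblasts, endothelium, leukocytes or neurons was 1.5-fold higher in the compressed culture, but only LUM and LYZ of them were kept. Unnamed on the array here were 5 of 7 fibroblast, 2 of 5 endothelial, 3 of 6 leukocyte and 3 of 5 neuronal markers. These lists are therefore covered in part. The part of other cells in the members' differences was not tested.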

How the data were processed

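RNA of 2 AsPC-1 cultures, 1 compressed and 1 uncompressed, was measured on 2 arrays. Per the submitters' processing notes, the authors made the deposited log2 values with the Transcriptome Analysis Console by RMA. RMA includes quantile normalization, which removes a change shared by all genes. The sources used here do not give versions, detection calls or the array's build, so dim signals cannot be placed above or below background. Precision is limited by the number of arrays. Groups came from the treatment label.

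The platform annotation named 16098 of 53617 probe sets, each with 1 gene, and symbols were updated from RefSeq (GRCh38.p14). The brightest probe set on average stood for a gene, ties going to the lowest number. The median over all probe sets was 3.72 on the compressed and 3.75 on the uncompressed array, and the arrays correlated at 0.972 over kept genes.

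The code of the size rule and the loess step was checked on simulated differences with planted changes and an added level trend. The simulation held no spread between cultures, so it says nothing about how reliable the calls made here are. Members and lists were chosen with earlier results of these data known. The genes named are the members, up to 4 genes past 1.5-fold in each direction of each of 12 lists, a fixed set of well-known members, and rank and chromosome neighbours. Genes named beside cell type markers are from the marker lists. The alternatives were the mean or the dimmest probe set, loess (span 0.3), centring, repeated quantile normalization, other filters and other sizes. Promoter windows came from RefSeq, with ARC and MYC left out, and proteins were not used here. Python 3.11.15, pandas 2.3.3, NumPy 2.4.6, statsmodels 0.14.6 and matplotlib 3.10.9 were used.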

Additional observations from a re-analysis of the deposited data

How the results depend on the processing

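The number of members at least 1.5-fold higher, 5 of 9, was 3 of 9 with a gene's probe sets averaged, 3 of 9 with the dimmest probe set, 3 of 9 after repeated quantile normalization, 3 of 6 with a filter at the 75th percentile of level and 2 of 9 at a size of 2-fold. It was 4 after loess correction, 5 after centring, 6 of 10 with no filter and 7 at the smaller size tried. ARC and EGR1 passed 1.5-fold under every normalization tried, with differences of 1.75 to 1.79 and 1.10 to 1.15. ARC has 1 probe set, so the probe set rules could not change it. The dimmer EGR1 probe set (1.24) is under the main filter. That filter was set anew under each probe set rule, and with the dimmest probe set it kept and counted this one. FOS was at 0.56 with the mean and 0.44 with the dimmest probe set. FOSB was at 0.36 and 0.12 there, 0.576 after loess and 0.55 after repeated quantile normalization, against a rule of 0.585. JUND was at 0.57 after repeated quantile normalization, and IER3 at 0.30. JUN and MYC were negative throughout. No member was 1.5-fold lower under any alternative, and the members' median lay between 0.46 and 0.61. List medians changed sign with no filter for the EGR family (-0.04) and the MAP kinase cascade (-0.12), and the median of the neuronal list lay between -0.02 and 0.02. Among the AP-1 and MAF genes the median was 0.32 with the stricter filter, which left 2 genes, and in the MYC network it was 0.06, with 4 left. The causes were not tested. No paired analysis was possible because each condition had 1 array.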
